A study of Mus musculus with 23 samples.

Results

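Methamphetamine was compared with saline in the nucleus accumbens of LMACT mice, a line selected for a low acute response to the drug, across the genes whose signal was above the floor of the arrays. A gene was a member when its value exceeded 2.3 on the log2 scale on 6 or more of the 11 LMACT arrays. Of 8251 genes measured, 5318 (64.5%) were members, and 5196 of these were above the floor on all 11 arrays. The floor was the lowest value of the table, shared by many genes, and 2425 genes lay there on every LMACT array. Just outside the rule were 12 genes above the floor on 5 arrays, among them Arf6 and Fxr1. Just inside were 7 genes above it on 6 arrays, among them Vamp3, Abcb1a and Crk.

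LMACT and its counterpart HMACT, selected for a high response, were bred from a stock made by crossing C57BL/6J with DBA/2J. The control group was 6 pools of LMACT mice given saline (0 mg/kg), with mean ages of 61.5 to 71 days except replicate 6 at 127.5 days. The treated group was 5 pools of LMACT mice given 2 mg/kg methamphetamine, numbered 2 to 6 (a replicate 1 was not analysed here), with mean ages of 60 to 72.75 days except replicate 6 at 114.75 days. Tissue was taken 1 hour after the injection, each pool was a 4-way tissue pool, and each was hybridised to 1 Affymetrix expression array. The labels do not say whether an animal was in more than 1 pool, so every p-value measures the spread between pools. The arrays came from 3 chip lots, lot numbers that differ in their first digit being counted as 1, and the largest held 4 saline and 3 treated arrays. Each difference comes from these 11 arrays. Its SE and p-value also rest on the 12 HMACT arrays, because the fit estimates 1 spread per gene over all 4 groups. The HMACT groups, 6 pools each of saline and 2 mg/kg methamphetamine at the same time, serve below as the comparison line. Their mean ages were 77.25 to 154 days, replicates 1 to 3 of both groups being 141.5 days or older, so line and age differ together in every comparison of the lines.

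Methamphetamine enters dopamine terminals and drives dopamine out through its transporter, so that dopamine in the nucleus accumbens rises. There it acts mainly on projection neurons, whose stimulatory dopamine receptors raise cyclic AMP and activate protein kinase A and the ERK kinases. These kinases phosphorylate CREB and related factors already present in the nucleus, which switch on immediate early genes within minutes. The drug also releases corticosterone, whose receptor is a transcription factor, and raises body temperature. Heat shock factor governs the inducible HSP70 chaperones, which refold damaged proteins.

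The tissue label was checked against marker genes. Of 6 projection neuron markers on the array, 5 were above the floor (Drd2, Penk, Pdyn, Tac1 and Ptpn5), and Rgs9 was at the floor. Their summed level was 14.26 to 14.70 on the saline arrays and 14.21 to 14.63 after methamphetamine, on the log2 scale. Markers of other cell types were also present, with all 10 neuronal, 6 of 8 oligodendrocyte, 7 of 8 astrocyte, 8 of 11 microglial and 8 of 9 endothelial markers above the floor. In such tissue, fewer cells of a type and less RNA per cell cannot be told apart. Of 4 cortical and hippocampal markers, Tbr1, Neurod2 and Nrgn were above the floor and Neurod6 was at it. Their summed level was 10.32 to 10.74 after saline and 10.17 to 11.14 after methamphetamine, highest on replicate 5. Of 6 choroid plexus and ependymal markers, Folr1, Aqp1, Igf2 and Foxj1 were above the floor and Ttr and Kl at it, with sums of 9.01 to 9.47 and 8.85 to 9.16. Of 4 blood cell markers, only Hba-a1 was above the floor, at 6.95 to 8.96 and 6.98 to 8.50, and Alas2, Ptprc and Cd3e were at it. The part of these markers in the results was not tested.

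The treated arrays of replicates 4 and 5 stood apart, and results below are given with and without them where they matter. On the main axis of variation within groups, which held 62.1% of the residual variance over 5308 genes, replicate 4 after methamphetamine had a score of 70.1. The other 10 LMACT arrays had scores between -7.05 and 5.95. On that array 1319 members (24.8%) lay over 1 log2 unit from the mean of the rest of the group, and on replicate 5 there were 479 (9.01%). The other treated arrays had 155 to 201 such members and the saline arrays 10 to 70. Replicate 5 also had the largest 3' minus 5' difference of the control probe sets, 4.44 for Gapdh and 4.70 for Actb, against 2.42 to 2.995 and 2.09 to 2.78 on the other LMACT arrays. A large difference of this kind is a sign of shortened RNA. The summed endothelial markers stood at 10.04 on replicate 4 and 9.84 on replicate 5, above the 8.45 to 8.95 of the saline arrays and the 8.70 to 8.93 of the other treated arrays. Microglial markers stood at 12.35 and 12.20 on the same arrays, against 11.47 to 11.97 after saline and 11.55 to 11.84 on the other treated arrays. The part of these differences in the results below was not tested, beyond leaving the arrays out.

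**Figure D1:**
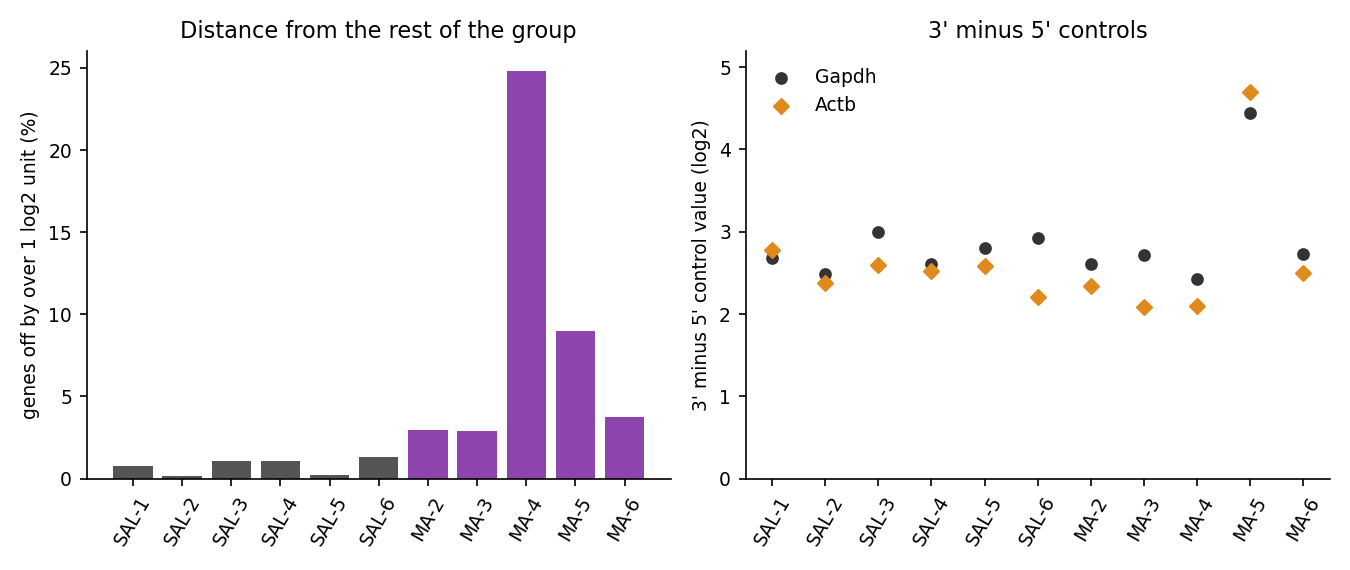
Bars give the percentage of the 5318 members that lay over 1 log2 unit from the mean of the other arrays of the same group, for each LMACT array (SAL, saline; MA, methamphetamine), and points give the 3' minus 5' difference of the Gapdh and Actb control probe sets (log2). Methamphetamine replicate 4 stands at 24.8% and replicate 5 at 9.01%, and replicate 5 has the largest 3' minus 5' differences.

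No member passed the test of methamphetamine against saline at a Benjamini-Hochberg adjusted p under 0.05 (0.00% of 8251 genes, limma). At an unadjusted p under 0.05, 166 members were higher and 82 were lower after the drug, which are 3.12% and 1.54% of the members and together 4.66%. Over all 8251 genes, 275 (3.33%) had such a p, 187 (2.27%) higher and 88 (1.07%) lower, and the split was 127 to 112 when each array was centred on its own median. Without methamphetamine replicate 4, 83 members were higher and 60 lower at this level, and without replicates 4 and 5, 85 and 65. The groups did not overlap for 36 members with higher values after methamphetamine (0.677% of members) and 19 with lower values (0.357%). Positive differences made up 53.3% of the members and 43.4% of all genes tested, and the median of the members was 0.01. The share over all genes counts any difference above 0, however small, also for genes not above the floor, so it does not describe measured changes. Members with a difference over 1 log2 unit numbered 17 upward and 35 downward, and 9 and 5 without replicate 4. The median SD of a member was 0.169 among the saline arrays and 0.372 among the treated arrays, or 0.226 without replicate 4. Since no gene passed, the text gives differences and unadjusted p-values as descriptions.

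**Figure D2:**
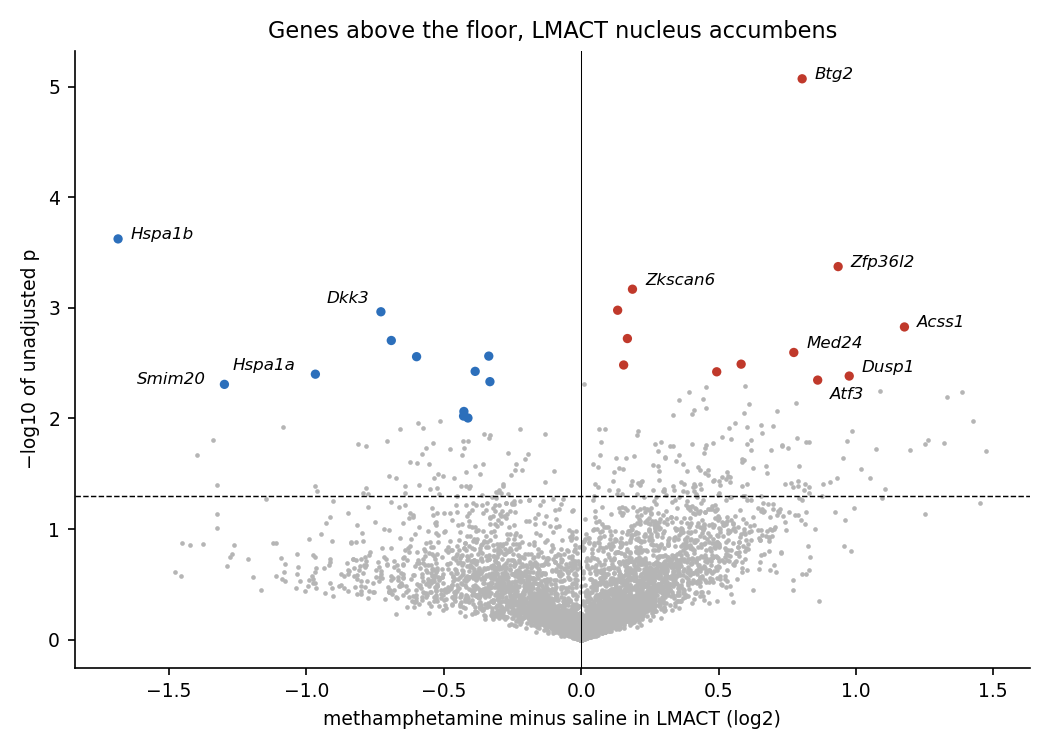
Unadjusted p as -log10 (vertical) against the difference between methamphetamine and saline in LMACT (log2, horizontal) for the 5318 members, with the 12 leading genes of each direction in red (higher) and blue (lower). Btg2 stands highest, at a difference of 0.80, and Hspa1b follows at -1.69.

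The smallest p in LMACT belonged to Btg2, an antiproliferative early response gene that couples transcription to mRNA turnover. On the saline arrays its level ran from 8.81 to 9.07 with a median of 9.01. After methamphetamine it was 9.85, 9.78, 9.79, 9.56 and 9.96 in replicates 2 to 6. All treated arrays lay above all saline arrays, and the gap of 0.49 was the widest of the non-overlapping members. The difference was 0.80 (SE 0.134), a 1.75-fold higher level, with an adjusted p of 0.070 by limma. By setting the adjusted p ran from 1.9e-06 with array weights to 1.00 in the largest lot, by limma. It was 0.0399 over members only, 0.0084 in a fit of the 11 LMACT arrays and 0.0125 without 4 arrays that stood apart in both lines, all by limma. It was 0.394 without methamphetamine replicate 6 and 0.166 with chip lot as a covariate, again by limma. The difference was 0.82 within the largest chip lot, and 0.79 and 0.72 in the other lots, which held 1 array of each group. Apart from those 1-against-1 lots, its size ranged from 0.76 to 0.88 over all settings tried.

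Next by p among the higher genes was Zfp36l2, which encodes a zinc finger protein that marks mRNAs for decay. Its level ran from 9.43 to 9.94 with a median of 9.64 on the saline arrays. The treated arrays gave 10.33, 10.54, 10.78, 10.25 and 10.96. Again no saline array reached the lowest treated array, and the difference was 0.94 (SE 0.221), with an unadjusted p of 4.2e-04. Dusp1, a nuclear phosphatase that switches off MAP kinases, ran from 8.25 to 9.26 with a median of 9.04 after saline. Its treated values were 9.91, 9.38, 10.39, 9.32 and 10.12. The groups did not overlap, although the saline arrays fell into a lower pair (replicates 3 and 6) and 4 others, and the difference was 0.98 (SE 0.300).

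Atf3, a stress-inducible transcription factor of the ATF and CREB family, ran from 3.91 to 4.59 with a median of 4.45 after saline. Treated values were 4.90, 4.77, 6.27, 5.28 and 4.74. The highest was on replicate 4, and the difference of 0.86 (SE 0.268) became 0.59 without it and 0.47 without replicates 4 and 5. A second probe set of Atf3 above the floor gave 0.19 (SE 0.120). Med24, a subunit of the Mediator complex that links transcription factors to RNA polymerase, ran from 8.96 to 9.61 with a median of 9.23 after saline. Its values after methamphetamine were 10.09, 9.78, 10.51, 9.97 and 9.94, all above the saline arrays, and its difference was 0.77 (SE 0.223). Acss1, a mitochondrial enzyme that makes acetyl-CoA from acetate, had the largest difference of the 12 leading higher genes, 1.18 (SE 0.318), but its groups overlapped.

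The 6 other leading higher genes had differences between 0.13 and 0.58. They were the endocytosis gene Snx9 (0.58), the histone chaperone gene Hira (0.49), Zkscan6 (0.19), Dgka (0.17), Mbd6 (0.15) and D10Wsu102e (0.13). Their groups overlapped. Leaving out replicates 4 and 5, Snx9 was 0.30 and Hira 0.12, and Hira was 0.31 without replicate 5 alone. For Zkscan6 one identical value stood on 6 of the 11 arrays, so that its spread, and with it its p, is a property of the deposited values. Such a recurring value stood on 6 or more LMACT arrays for 642 of the 5318 members. All 12 leading higher genes had positive differences without replicate 4 and in the largest lot alone.

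Upstream sequences are shown for Btg2 and Dusp1, which both lead the higher genes and hold the element that CREB binds. Each is the 250 bases before the RefSeq start on GRCm38.p6, minus strand, at chr1:134079156-134079405 for Btg2 and chr17:26508473-26508722 for Dusp1. Capitals mark the cyclic AMP response element TGACGTCA, to which CREB binds.
Btg2: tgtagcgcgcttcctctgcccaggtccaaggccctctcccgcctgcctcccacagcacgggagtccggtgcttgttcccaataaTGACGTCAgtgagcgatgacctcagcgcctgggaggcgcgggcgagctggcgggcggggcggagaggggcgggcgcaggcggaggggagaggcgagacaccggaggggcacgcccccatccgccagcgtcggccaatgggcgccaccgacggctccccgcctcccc
Dusp1: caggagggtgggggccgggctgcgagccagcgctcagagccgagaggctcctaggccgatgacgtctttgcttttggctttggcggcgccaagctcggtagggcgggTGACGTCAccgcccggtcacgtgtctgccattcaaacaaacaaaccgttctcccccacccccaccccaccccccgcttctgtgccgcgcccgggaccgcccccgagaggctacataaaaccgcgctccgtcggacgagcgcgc
Counted from the start, the element lies at -166 to -159 in Btg2 and at -143 to -136 in Dusp1. It was searched as TGACGTCA, which reads the same on both strands, and 1.55% of 32851 promoters of this length hold it. The genes looked up were the leading genes of both directions and Fos, 25 in all, and no other early gene was searched. Of these, 19 had a sequence in the table, and Btg2 and Dusp1 were the only 2 of the 19 with the element. Elements further upstream than 250 bases, or with letters other than those searched, would be missed, in Fos as in the others. Other motifs were searched too. AP-1 and serum response elements were in 0 of the 19, and a GC box was in all 19, against 32.7% of promoters. Whether the share of 1.55% suits promoters of this kind was not tested. The match describes the letters and not binding.

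**Figure D3:**
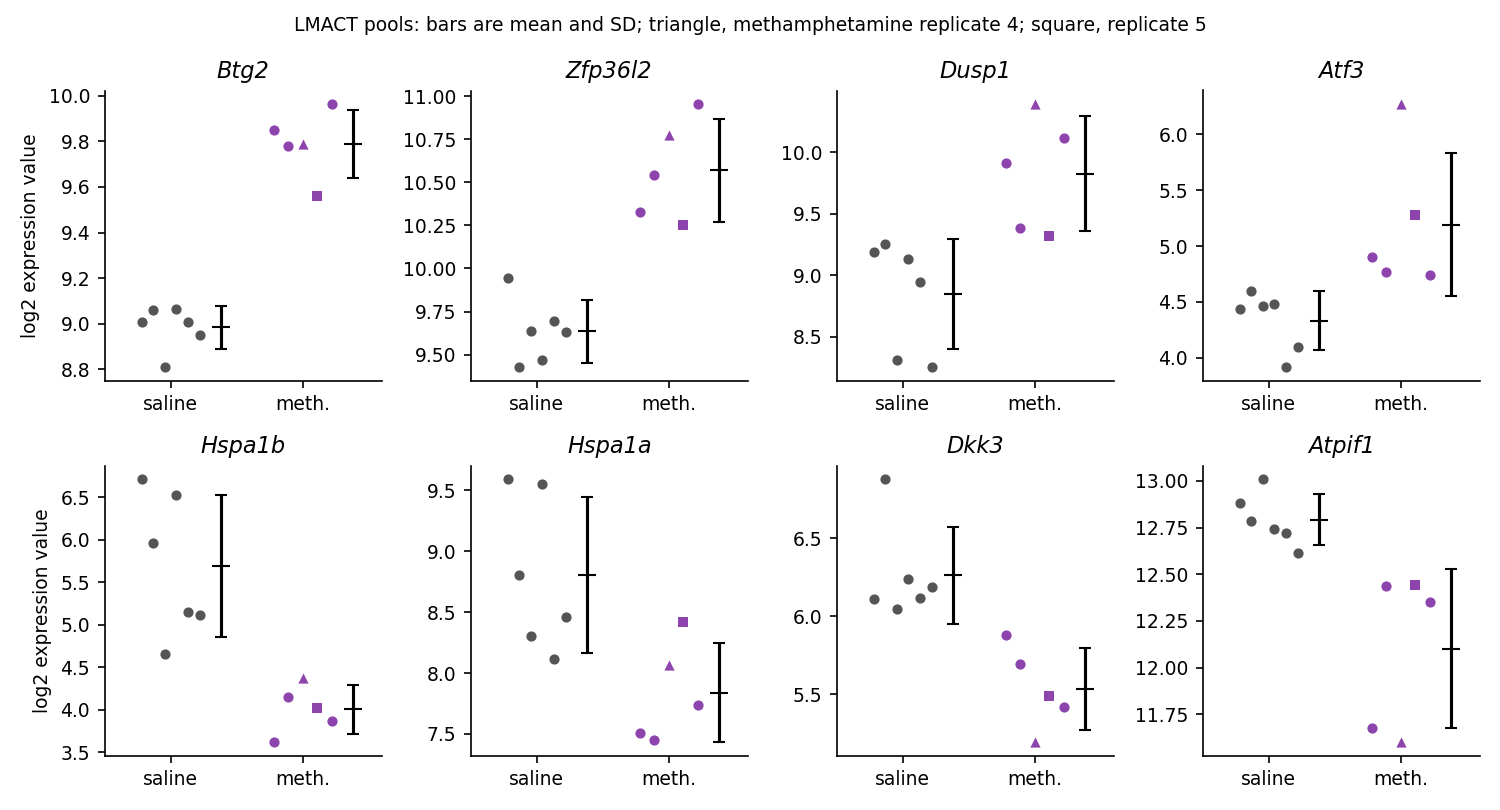
Level (log2) on each LMACT array for 8 leading genes, 1 point per array, with mean and SD beside the points (6 saline and 5 methamphetamine arrays). A triangle marks methamphetamine replicate 4 and a square replicate 5. The treated arrays of Btg2 lie at 9.56 or more and the saline arrays at 9.07 or less, and for Hspa1b the treated arrays lie at 4.38 or less and the saline arrays at 4.66 or more.

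Among genes with lower values, Hspa1b had the smallest p. It encodes an inducible HSP70 chaperone. On the saline arrays its level ran from 4.66 to 6.72 with a median of 5.56, a spread of over 2 log2 units. After methamphetamine it was 3.62, 4.15, 4.38, 4.02 and 3.86. Every treated array lay below every saline array, and the spread of the treated arrays was the narrower one. The difference was -1.69 (SE 0.375), a 3.22-fold lower level, with an unadjusted p of 2.4e-04 and an adjusted p of 0.983 by limma. The difference was -1.40 within the largest chip lot, and -2.34 and -2.15 in the lots with 1 array of each group. Apart from those, it ranged from -1.89 to -1.40 over the settings tried.

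Hspa1a, its near-identical neighbour, ran from 8.11 to 9.59 with a median of 8.63 after saline. Its treated values were 7.51, 7.45, 8.07, 8.42 and 7.74. The groups overlapped, and the difference was -0.97 (SE 0.296). Probes for this pair may detect both transcripts, so their values are uncertain as separate measurements. Their upstream sequences are shown because they carry the same element. They lie on the minus strand of GRCm38.p6 at chr17:34959239-34959488 for Hspa1b and chr17:34972157-34972406 for Hspa1a, again 250 bases before the RefSeq start, with a heat shock element in capitals.
Hspa1b: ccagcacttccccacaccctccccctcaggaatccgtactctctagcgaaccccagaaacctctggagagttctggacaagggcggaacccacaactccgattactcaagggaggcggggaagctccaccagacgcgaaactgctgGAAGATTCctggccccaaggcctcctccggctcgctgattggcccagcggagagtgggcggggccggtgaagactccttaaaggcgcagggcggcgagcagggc
Hspa1a: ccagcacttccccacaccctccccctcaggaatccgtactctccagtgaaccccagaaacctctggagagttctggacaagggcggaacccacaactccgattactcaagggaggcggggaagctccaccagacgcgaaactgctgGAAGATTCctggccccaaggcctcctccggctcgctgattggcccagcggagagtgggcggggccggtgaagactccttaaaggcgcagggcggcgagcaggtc
Of the 250 bases, 247 (98.8%) are identical. The element GAAGATTC lies at -104 to -97 from both starts. It was found by searching GAANNTTC and TTCNNGAA on both strands, which 12.8% of the 32851 promoters hold. Among the 19 genes with a sequence 3 held such an element, the third being Pdgfa, another leading lower gene, with 2 matches.

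The other leading lower genes were not chaperones. Dkk3, a secreted protein of the Dickkopf family, ran from 6.04 to 6.88 with a median of 6.15 after saline. It was 5.88, 5.69, 5.19, 5.49 and 5.42 after methamphetamine. The groups did not overlap, and the difference was -0.73 (SE 0.190). Atpif1, the inhibitor of the mitochondrial ATP synthase, ran from 12.61 to 13.01 with a median of 12.76 after saline. Treated values were 11.68, 12.44, 11.60, 12.44 and 12.35, all below the saline arrays. Its difference was -0.69 (SE 0.193), and -0.57 without replicate 4, which with replicate 2 was lowest.

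Smim20, a small protein of cytochrome c oxidase assembly, had a difference of -1.30 (SE 0.409) with overlapping groups. Its lowest treated value was 6.05 on replicate 5, and without that array the difference was -0.99. Ccdc117, the last of the 4 leading lower genes whose groups did not overlap, differed by -0.39 (SE 0.117). The remaining 6 had differences from -0.60 to -0.33: 1810009A15Rik, the iron-sulphur cluster gene Nfu1, Chchd7, the growth factor gene Pdgfa, Mllt11 and the secretory pathway gene Cnih1. Mllt11 was -0.22 and Cnih1 -0.21 without replicates 4 and 5. All 12 kept a negative difference without replicate 4 and in the largest lot.

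Immediate early transcription factors were considered next, in the order of their families. Of 21 listed genes on the array, 17 were above the floor, 10 with a positive and 7 with a negative difference, and their median was 0.30 against 0.01 over all members. At an unadjusted p under 0.05, 6 were higher and 0 lower, against 3.12% and 1.54% of all members, and none passed the adjusted threshold. Without replicate 4 the median was 0.14 and 3 were higher at that level. Without replicates 4 and 5 it was 0.23, with 1 gene higher, Nr4a1, and 1 lower, Jund.

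Fos, the founding AP-1 gene, ran from 9.58 to 9.87 with a median of 9.67 after saline. It was 9.88, 10.17, 10.06, 10.12 and 10.33 after methamphetamine. The groups just failed to meet, with a gap of 0.02, and the difference of 0.41 (SE 0.261) had an unadjusted p of 0.132, because the fit shares the spread of all 4 groups. Fosb varied widely among the saline arrays, from 10.01 to 12.47 with a median of 10.50, with replicates 3 and 6 highest. Its treated values, 10.26, 12.43, 12.04, 10.60 and 11.06, lay within that range, and the difference of 0.33 (SE 0.527) was 0.14 without replicate 4. Junb differed by 0.48 (SE 0.214), 0.30 without replicate 4 and 0.23 without replicates 4 and 5, with a second probe set at 0.57. Jun had a difference of 0.02 (SE 0.153), whose sign turned under several settings.

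Nr4a1, an orphan nuclear receptor induced by dopamine and growth factors, ran from 7.50 to 8.14 with a median of 7.80 after saline. After methamphetamine it was 8.36, 8.14, 9.03, 8.14 and 8.37, with replicate 4 highest. The lowest treated array lay just above the highest saline array. The difference was 0.59 (SE 0.204), or 0.44 without replicate 4. Egr1, a zinc finger factor of the same early wave, overlapped between groups, and its difference of 0.48 (SE 0.214) also had its top treated value on replicate 4. For Egr2 the difference was 0.30 (SE 0.177).

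Among the Kruppel-like factors, Klf4 ran from 5.02 to 5.30 with a median of 5.25 after saline. Treated values of Klf4 were 5.39, 5.68, 5.80, 6.29 and 5.75, again without overlap and highest on replicate 5. Its difference was 0.59 (SE 0.238), or 0.58 without replicate 4, 0.46 without replicate 5 and 0.41 without both. Klf2, which like Klf4 is also an endothelial gene, differed by 0.50 (SE 0.224). It was 0.33 without replicate 4 and 0.09 without replicates 4 and 5, the arrays with its 2 highest treated values. Klf2 and other list members outside the naming rule are named here after their values were seen. Endothelial markers were highest on replicates 4 and 5, as given above.

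Early response effectors, the enzymes and regulators that these signals induce, followed. Of 27 on the array, 22 were above the floor, with 15 positive and 7 negative differences and a median of 0.13. By unadjusted p under 0.05, 6 were higher and 0 lower, against 3.12% and 1.54% of all members. Without replicate 4 the counts were 4 and 0, and without replicates 4 and 5 they were 5 and 0. Besides Btg2 and Dusp1 these were Plk2, Plk3, Gadd45g and Ccn1. The secreted matrix protein gene Ccn1 was nearly constant on the saline arrays, from 3.06 to 3.09 with a median of 3.08. After methamphetamine it was 3.92, 3.36, 4.26, 3.34 and 3.31. No values overlapped, although all lay near the low end of the scale, and the difference was 0.56 (SE 0.199). Plk2, an activity-induced kinase of synaptic scaling, averaged 11.79 ± 0.07 after saline (SD, n = 6) and 12.20 ± 0.41 after methamphetamine (SD, n = 5). Its difference was 0.41 (SE 0.141). Gadd45g had 0.76 (SE 0.344), which was 0.44 without replicate 4 and 0.33 without replicates 4 and 5. Plk3 had 0.26 (SE 0.109). It had 1 identical value on 6 LMACT arrays, so its spread and p are, as for Zkscan6, a property of the deposited values.

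Glucocorticoid responsive genes followed, which the corticosterone receptor induces in brain. Of 27 on the array, 19 were above the floor, 15 with positive and 4 with negative differences, and the median was 0.16. The counts were 12 and 7, with a median of 0.06, without replicates 4 and 5. There were 5 higher and 0 lower at an unadjusted p under 0.05, against 3.12% and 1.54% of all members, and 3 were higher without replicate 4 and without replicates 4 and 5. One of the 5 was Dusp1, counted also among the effectors. Txnip, an inhibitor of thioredoxin, ran from 4.96 to 6.27 with a median of 5.16 after saline, with replicates 3 and 6 at 6.27 and 6.26. Its values after methamphetamine were 6.02, 6.96, 7.56, 6.10 and 6.23. The groups overlapped through those 2 saline arrays, and the difference was 1.09 (SE 0.349).

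Ddit4, a brake on mTOR signalling, showed the same pair of high saline arrays, from 7.33 to 8.84 with a median of 7.74. Treated values were 8.27, 8.75, 9.75, 9.64 and 8.63, and the difference was 0.99 (SE 0.361), or 0.53 without replicates 4 and 5. Cebpd, a transcription factor of inflammation and hormone responses, ran from 3.61 to 4.48 with a median of 3.97 after saline. It was 4.72, 4.30, 7.15, 6.25 and 4.87 after methamphetamine. Its top values fell on replicates 4 and 5, the arrays with the highest endothelial and microglial markers, and the difference of 1.47 (SE 0.580) became 1.05 without replicate 4 and 0.65 without both. Cdkn1a, the cell cycle inhibitor p21, ran from 4.30 to 4.79 with a median of 4.68 after saline. Its treated values were 6.12, 6.20, 7.03, 4.78 and 5.23, with only replicate 5 inside the saline range. The difference was 1.25 (SE 0.478), and 0.96 without replicate 4.

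**Figure D4:**
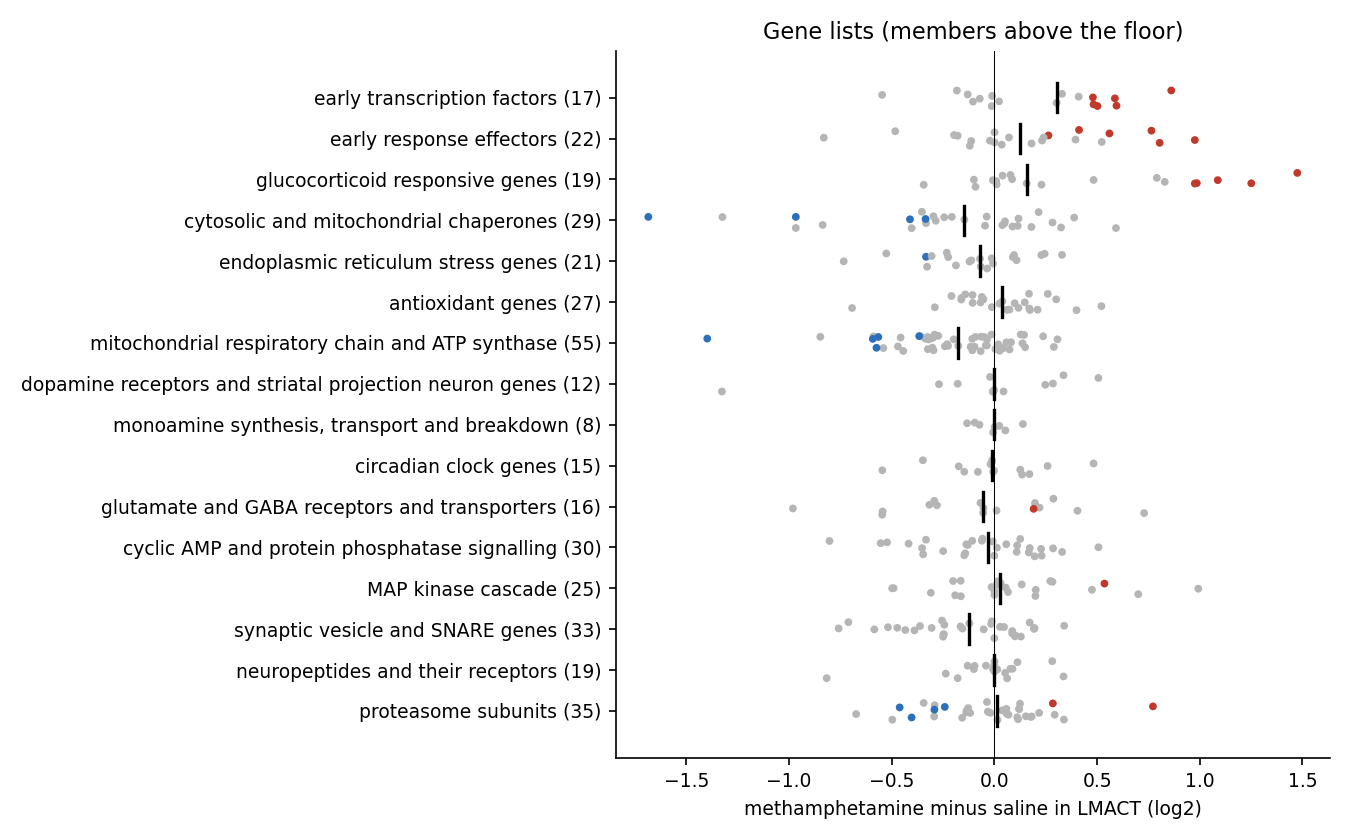
Difference between methamphetamine and saline in LMACT (log2) for each above-floor gene of the pathway lists (1 point per gene, number of genes in brackets). Vertical bars are list medians, and coloured points have an unadjusted p under 0.05 (red higher, blue lower). The early transcription factors have a median of 0.30, the glucocorticoid responsive genes 0.16, the chaperones -0.15 and the respiratory chain genes -0.18.

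Chaperones were examined as a family, since both HSP70 genes led the lower members. Of 33 on the array, 29 were above the floor, with 12 positive and 17 negative differences, and the median was -0.15, or -0.06 without replicate 4. There were 0 higher and 4 lower at an unadjusted p under 0.05, against 3.12% and 1.54% of all members. Without replicate 4 there were 3 lower, and without replicates 4 and 5 there were 6. The 4 were Hspa1a, Hspa1b, Hspa8 and Hspe1. Hspa1a and Hspa1b prompted this look at the family, and their probes may detect both transcripts. Their part of the count is therefore not a separate result. Hspa8, the constitutive HSP70 of neurons, ran from 9.71 to 10.07 with a median of 9.99 after saline. After methamphetamine it was 9.36, 9.55, 10.03, 9.33 and 9.74, and the overlap came from replicates 4 and 6. Its difference was -0.34 (SE 0.126), and -0.44 without replicate 4. Hspe1, the mitochondrial co-chaperonin, had -0.41 (SE 0.156).

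Chordc1, an HSP90 co-chaperone gene, did not overlap between groups, yet its difference of -1.32 (SE 0.699) was -0.77 without replicate 4 and -0.47 without replicates 4 and 5. Dnajb1, the HSP40 partner of inducible HSP70, differed by -0.21 (SE 0.258), with an unadjusted p of 0.430. Genes of the endoplasmic reticulum stress response gave 6 positive and 15 negative differences among 21 above the floor, with a median of -0.07, and 9 and 12 with a median of -0.01 without replicates 4 and 5. Canx, a membrane chaperone of glycoproteins, was the 1 gene at an unadjusted p under 0.05, with -0.33 (SE 0.124), or -0.24 without replicates 4 and 5. Its level was low, averaging 3.26 after saline and 2.93 after methamphetamine. Ddit3 and Creld2 followed with 0.23 and -0.23, and without replicates 4 and 5 they were 0.04 and -0.47.

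Antioxidant genes, listed because methamphetamine puts oxidative stress on dopamine terminals, had 0 members at an unadjusted p under 0.05. Of 27 above the floor, 15 had positive and 12 negative differences, and the median was 0.04. Without replicate 4 there were 11 positive and 16 negative, and without replicates 4 and 5 there were 9 and 18, with a median of -0.03. Nfe2l2, the transcription factor that governs many of them, ran from 4.50 to 5.33 with a median of 4.93 after saline. It was 4.40, 4.28, 3.91, 4.17 and 4.32 after methamphetamine. The groups did not overlap, and the difference was -0.69 (SE 0.343), with an unadjusted p of 0.0574. Catalase (Cat) had 0.15 (SE 0.0750), or 0.07 without replicate 5, and the peroxiredoxin gene Prdx2 -0.29 (SE 0.162), with 1 other Prdx2 probe set at -0.19.

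Genes of the respiratory chain and ATP synthase had mostly negative differences of small size. Of 55 above the floor, 40 were negative and 15 positive, with a median of -0.18, against 2480 negative and 2835 positive among all members. At an unadjusted p under 0.05, 5 were lower and 0 higher, against 1.54% and 3.12% of all members. Without replicate 4, 42 were negative with a median of -0.13 and 4 lower at that level. Without replicates 4 and 5, 47 were negative with a median of -0.23 and 9 lower. Ndufb6, of complex I, ran from 9.82 to 10.37 with a median of 10.33 after saline. Its treated values were 9.24, 9.70, 9.91, 9.58 and 9.75. Only saline replicate 6 reached into the treated range, and the difference was -0.59 (SE 0.211).

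The same saline array was lowest for Cox7a2, a subunit of cytochrome c oxidase, which ran from 10.69 to 11.32 with a median of 11.21 after saline. Treated values of Cox7a2 were 10.48, 10.61, 10.01, 10.87 and 10.86, and its difference was -0.57 (SE 0.208), or -0.44 without replicate 4. Uqcrq, of complex III, averaged 12.98 ± 0.41 after saline (SD, n = 6) and 12.41 ± 0.18 after methamphetamine (SD, n = 5). Its difference was -0.57 (SE 0.220). Ndufc1 had -0.37 (SE 0.158) and the ATP synthase gene Atp5l -1.40 (SE 0.558). Atp5l stood at 8.12, 8.60, 7.56, 9.50 and 8.64 on the treated arrays, and on the saline arrays it ran from 9.06 to 10.51 with a median of 9.92. Of 10 neuronal markers, 8 had negative differences, with a median of -0.19, or -0.11 without replicate 4. Without replicates 4 and 5, 5 were positive and 5 negative, with a median of -0.04. Eno2, a neuronal enolase, had -0.31 (SE 0.145), and -0.19 without those arrays. Their summed level was 14.83 to 15.15 after saline and 14.49 to 15.10 after methamphetamine, lowest on replicate 5, and its part in these differences was not tested.

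Striatal signalling genes had small differences on most arrays. Of 12 dopamine receptor and projection neuron genes above the floor, 5 were positive and 7 negative, with a median of 0.00 and 0 at an unadjusted p under 0.05. Drd2, the inhibitory dopamine receptor, ran from 5.38 to 5.74 with a median of 5.67 after saline. It was 5.65, 5.68, 6.93, 5.66 and 5.68 after methamphetamine. Replicate 4 alone stood out, and the difference of 0.29 became 0.03 without it. The peptide precursor gene Pdyn showed the same array pattern, with 0.34 and 0.03. Penk and Tac1, the other peptide genes of these neurons, differed by under 0.01 in size and by -0.18 (SE 0.159). Arpp19, a cyclic AMP regulated phosphoprotein, had a difference of -1.33 (SE 0.764) that was -0.64 without replicate 4 and -0.12 without replicates 4 and 5, and its second probe set gave -0.83. Drd3, Drd4, Chrm1, Chrm4, Cnr1 and the opioid receptor genes Oprm1, Oprk1 and Oprd1 were at the floor, so no difference could be measured for them.

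Monoamine and clock genes also gave 0 members at an unadjusted p under 0.05. Of 8 monoamine genes above the floor, 4 were positive and 4 negative, and those with the smallest p were Slc6a2 (-0.07), Pts (-0.10) and Th (0.14, or 0.02 without replicate 4), while the dopamine transporter gene Slc6a3 was at the floor. Pts was 0.03 without replicates 4 and 5. Of 15 clock genes, 5 were positive and 10 negative, and without replicates 4 and 5 the split was 10 positive and 5 negative, with a median of 0.06. Per1, which light and stimulants induce, had 0.48 (SE 0.309), or 0.27 without replicate 4, and Nr1d2 and Rora had -0.55 and -0.15. Without replicates 4 and 5 these were 0.16 and 0.04. Csnk1e, a casein kinase gene and a known candidate for methamphetamine response, differed by -0.17 (SE 0.272). Its sign rested on replicate 5, and without that array it was 0.11.

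Receptor and second messenger genes showed few differences. Of 16 glutamate and GABA genes above the floor, 7 were positive and 9 negative, and the kainate receptor gene Grik1 was higher at an unadjusted p of 0.0220, with 0.19 (SE 0.0767). Grik1 lay near the floor, averaging 2.73 after saline and 2.92 after methamphetamine with overlapping groups. Without methamphetamine replicate 6 its difference was 0.09. Grik2 and Grin2c had -0.32 and 0.22, or -0.17 and 0.13 without replicates 4 and 5. Among 30 cyclic AMP and phosphatase genes, 13 were positive and 17 negative, led by Pde7a (-0.33), Adcy8 (0.20) and Ppp1r2 (0.23), with 0 at that level. Without replicates 4 and 5 the split was 17 positive and 13 negative, with 1 higher at that level, and these 3 genes were -0.18, 0.34 and -0.03. Another probe set of Ppp1r2 above the floor gave -0.08 over all LMACT arrays. Among 25 MAP kinase genes, 15 were positive and 10 negative. Mapk14, the p38 kinase, had 0.54 (SE 0.233), which was 0.36 without replicate 4, and its substrate kinase gene Mapkapk2 did not overlap between groups, with 0.70 (SE 0.406), or 0.42 without replicate 4. Map3k5 and Map3k3, which feed into p38, had 0.27 and 0.47, and 0.16 and 0.02 without replicates 4 and 5. Other probe sets of Map3k3 above the floor gave 0.08 and 0.02.

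Synaptic vesicle and SNARE genes had 12 positive and 21 negative differences among 33 above the floor, with a median of -0.12 and 0 at an unadjusted p under 0.05. Without replicate 4 the counts were 6 and 27, with 1 lower, and without replicates 4 and 5 they were 13 and 20, with a median of -0.04 and 1 lower. Nsf, the ATPase that recycles SNARE complexes, had -0.24 (SE 0.122), or -0.13 without replicate 5. Stx7 had -0.47, which turned to 0.06 without replicates 4 and 5, and Syt6 had 0.10, which was under 0.01 in size without replicate 4. Of 19 neuropeptide and receptor genes, 9 were positive and 10 negative. Their median was -8.9e-16, a rounding residue, so the negative count includes a gene without a measured difference. Oprl1 stood at 0.28 and Ntsr1 at 0.11, or 0.15 and 0.05 without replicate 4. Proteasome subunits split evenly, 18 to 17 among 35 above the floor, with 2 higher and 4 lower at an unadjusted p under 0.05, and 0 and 0 without replicate 4. The higher ones were Psmc1 at 0.28 (SE 0.121) and Psmd13 at 0.77 (SE 0.354). The lower ones were Psma2 at -0.40 (SE 0.184), whose groups did not overlap, Psma6 at -0.24 (SE 0.103), Psmb7 at -0.29 (SE 0.138) and Psmd10 at -0.46 (SE 0.203). Psma6 was -0.13 and Psmd10 -0.24 without replicates 4 and 5.

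The same genes were then read in HMACT, which shares no array with LMACT and where 105 members (1.97%) had an unadjusted p under 0.05. Both lines share the same fit and its spread per gene. A gene picked for a small p in LMACT may have a small p in HMACT partly through that spread. The counts of such p-values below are therefore not independent support. Of all 5318 members, 2392 had a positive difference in HMACT, and the directions below are to be read against that share. Of the 12 leading higher genes, 8 had a positive difference in HMACT. Of these 8, 4 had an unadjusted p under 0.05 there, where 0.658% of members were higher at that level. These were Btg2 (0.96), Zfp36l2 (0.73), Dusp1 (0.62) and Atf3 (1.04). Of the 12 leading lower genes, 7 had a negative difference in HMACT and 2 an unadjusted p under 0.05, where 1.32% of members were lower. These were Hspa1b (-1.73) and Hspa1a (-1.05). The medians in HMACT were 0.00 for the 12 higher genes, against 0.68 in LMACT, and -0.07 for the 12 lower genes, against -0.51. Of the 36 non-overlapping higher members, 13 were positive in HMACT and 6 had an unadjusted p under 0.05. Of the 19 lower ones, 5 were negative and 1 had such a p. Some HMACT arrays also stood apart on the axis of variation given above. The scores were 53.1 and 29.9 for saline replicates 3 and 5, and 65.5 and 26.8 for methamphetamine replicates 3 and 2. Every HMACT difference given for a gene includes these arrays, and so does its line difference.

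**Figure D5:**
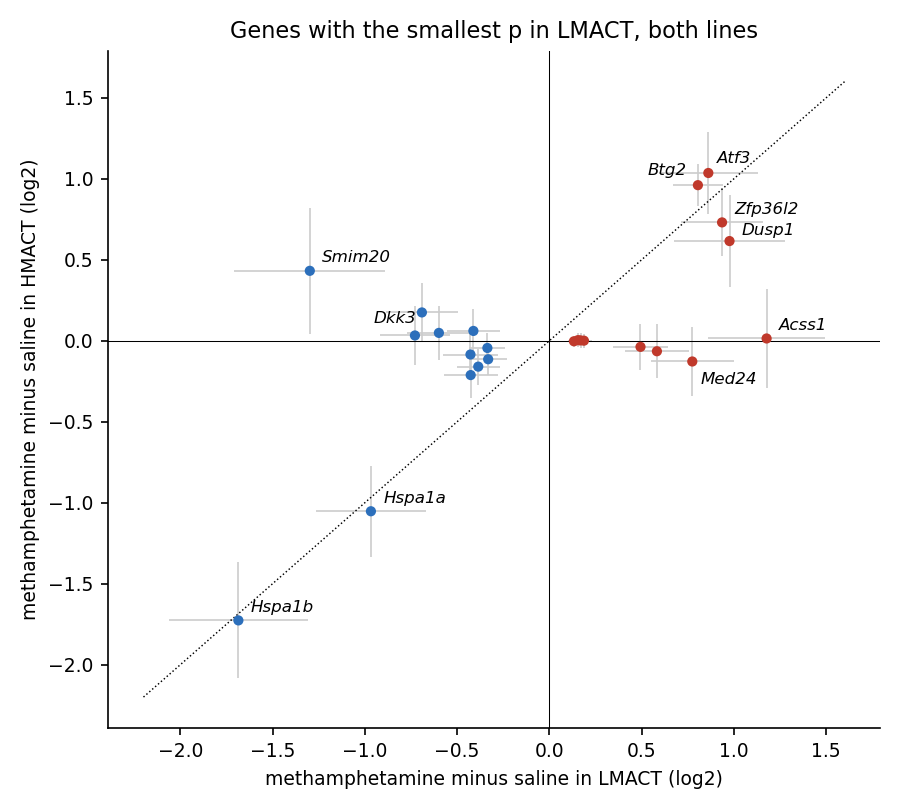
Difference between methamphetamine and saline in HMACT (log2) against that in LMACT (log2) for the 24 leading genes of LMACT, with SE as grey lines and the line of equal differences dotted. Btg2, Zfp36l2, Dusp1, Atf3, Hspa1a and Hspa1b differ in the same direction in both lines, and most of the other genes lie near 0 in HMACT.

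A test of the line difference, the HMACT minus the LMACT effect, called 0 genes at an adjusted p under 0.05 (limma). At an unadjusted p under 0.05, 210 members (3.95%) differed, and of all genes 216 (2.62%). Btg2 had a line difference of 0.16 (SE 0.186), and Hspa1b one of -0.04 (SE 0.519). For Atpif1 it was 0.87 (SE 0.267), with an unadjusted p of 0.0042. Smim20 gave 1.73 (SE 0.566), Med24 -0.90 (SE 0.309) and Dkk3 0.76 (SE 0.263). These genes were chosen for a difference in LMACT, so a smaller size in HMACT follows in part from the choice, and none of them passed.

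Among the early genes, several differed in size between lines without a passed test. Fos was 0.41 in LMACT and 0.93 in HMACT, a line difference of 0.52 (SE 0.360). Egr2 was 0.30 and 0.81, with a line difference of 0.51 (SE 0.245). Egr1 and Nr4a1 ran the other way, at 0.48 and 0.59 in LMACT against -0.19 and 0.05 in HMACT. Their line differences were -0.67 (SE 0.296) and -0.54 (SE 0.283). Dnajb1 was -0.21 in LMACT and -0.98 in HMACT, a line difference of -0.77 (SE 0.356).

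When limma weighted each array by its estimated quality, with 0.165 for methamphetamine replicate 4 and 0.292 for replicate 5, 31 genes passed the adjusted threshold in LMACT. Those with the smallest p were Btg2, Zfp36l2, Dgka, Mcam, Copz2 and Tmsb10. Mcam, an adhesion protein of vessel walls, had an unweighted difference of 0.60 (SE 0.189), and 0.37 without replicate 4, with 1 value recurring on 6 arrays. Tmsb10, an actin-binding peptide, ran from 8.38 to 9.72 with a median of 9.23 after saline. Its treated values were 7.52, 7.88, 7.66, 8.77 and 7.38, and the unweighted difference was -1.34 (SE 0.507) with overlapping groups. Copz2, a coat protein of transport vesicles, had -0.16 (SE 0.0827), and -0.30 without replicates 4 and 5. These weights were estimated from the same arrays that the test compares.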

How the data were processed

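The members and the gene lists were chosen with earlier results of these data known. The table deposited by the authors holds log2 intensities of 12488 probe sets on 23 arrays, a scale read off their range of 2.23 to 16.4. Their normalization is not given in the sources used here. Array medians lay between 2.51 and 2.63 and upper quartiles between 6.35 and 6.51, so the distributions were close but not identical. The submitters' processing notes list R 2.7.1 with no role. Besides 66 control probe sets, 10833 had 1 listed gene, 396 had several and 1193 had none listed. RefSeq (GRCm38.p6) symbols were found for 10817. For 2073 genes with several probe sets the brightest was used, giving 8251 genes.

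One limma 3.58.1 fit of 4 group means over all 23 arrays (R 4.3.3, eBayes, no covariate) gave every difference, with Benjamini-Hochberg adjustment over 8251 genes and two-sided tests. Groups, ages and chip lots came from the labels. In simulated data, changes of 0.5, 1 and 2 log2 units were recovered in 30%, 70% and 95% of cases in LMACT, over 8251 genes. The simulation drew independent noise with 1 spread per gene in all groups, and 100 genes were changed by each size. The real treated arrays varied more than the saline arrays, and arrays shared a main axis of variation. These rates therefore do not carry over to the real comparison. The genes named are the 12 with the smallest p in each direction, up to 3 per pathway list, fixed early, chaperone and striatal genes, and up to 6 from an alternative calling over 1.5 times more genes. Alternatives covered normalization, array weights, array exclusion, chip lot, age, probe sets, the variance model and a replicate block. Same-numbered pools did not deviate together throughout (r from -0.140 to 0.397), so the block is an alternative only. All 55 pairs of LMACT arrays differed, by at least 0.162 on average, so none was counted as a copy.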

Additional observations from a re-analysis of the deposited data

Results flagged for a closer look

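Among the named genes, 25 values lay far from the rest of their own group, by the size of the gap to the nearest array relative to the group's range. Chance gives such a value in about 1 group in 20 where values vary continuously, and 158 groups were examined. For Zkscan6 and Syt6, and for Slc6a2 after methamphetamine, the gap was the whole range. The other arrays of those groups were thus equal, and the rate does not cover such groups. No explanation was tested.

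On methamphetamine replicate 4 there were 7, all of them high: Nr4a1 at 9.03, Map3k5 at 6.03, Syt6 at 2.83, Ntsr1 at 4.20, Egr1 at 10.68, Drd2 at 6.93 and Pdyn at 8.78. On methamphetamine replicate 5 there were 3, all low: Mllt11 at 8.48, Smim20 at 6.05 and Csnk1e at 6.92. Replicate 6 of that group had Slc6a2 at 3.01, where the other arrays of the group differ from it by under 0.01.

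After saline, replicate 1 had 4 such values: D10Wsu102e at 3.92, Mbd6 at 4.19, Cnih1 at 8.75 and Ntsr1 at 3.55. Replicate 6 also had 4: Zkscan6 at 3.24, Ndufb6 at 9.82, Cox7a2 at 10.69 and Map3k3 at 3.92. Replicate 3 had 1810009A15Rik at 7.57 and Syt6 at 2.31, and replicate 5 had Egr2 at 9.16 and Dnajb1 at 5.52. Dkk3 stood at 6.88 on replicate 2 and Slc6a2 at 3.40 on replicate 4.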

How the results depend on the processing

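The count of genes at an adjusted p under 0.05 in LMACT, 0 with 275 at an unadjusted p under 0.05 by limma, was 0 when any 1 LMACT array was left out (0 to 0). It was 31 with array weights and 1 with each of 5 settings: members only, only the 11 LMACT arrays, and without 4 arrays, 5 arrays or methamphetamine replicates 4 and 5. Genes higher at an unadjusted p under 0.05 (187) numbered 507 with array weights, 63 in the largest lot and 110 to 271 leaving out 1 array, with 117 without methamphetamine replicate 4 and 110 without saline replicate 1. Genes lower (88) numbered 284 with array weights, 135 in the LMACT arrays alone, 22 in the largest lot and 63 to 123 leaving out 1 array. For the line difference, 0 genes passed by limma, and the count at an unadjusted p (216) was 888 with array weights, 382 without 5 arrays and 132 to 289 leaving out 1 array, with 138 without methamphetamine replicate 4 and 132 without saline replicate 1.

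With the replicate number as a block, 0 genes passed in LMACT, 161 were higher and 97 lower at an unadjusted p under 0.05, and Btg2 was 0.81 with an adjusted p of 0.988 by limma. The line difference count was then 357. The numbers did not pair the pools, and 1 of 5 correlated best with its own number.

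Of 2128 values of the 79 named genes under alternatives, 36 turned direction, in 12 genes. With array weights Pts was 0.046, Nr1d2 0.063, Rora 0.085, Grin2c -0.021, Ppp1r2 -1.9e-04 and Jun -0.011. In the largest lot Slc6a2 was 0.0070, Rora 0.070, Fosb -0.012, Jun -0.026, Penk 0.019 and Pdyn -0.012. Without methamphetamine replicates 4 and 5, Pts was 0.034, Nr1d2 0.16, Rora 0.035, Ppp1r2 -0.030, Stx7 0.059, Jun -0.023 and Csnk1e 0.058. Without the 4 or 5 arrays, Pts was 0.010 and Jun -0.046. Leaving out 1 array gave Pts -0.17 to 0.010, Jun -0.046 to 0.10, Penk -0.047 to 0.065 and Csnk1e -0.29 to 0.11. Penk was 0.036 with the mean of probe sets, 0.026 with quantile normalization and 0.033 with the block. The causes were not tested. The settings without 5 arrays, without replicates 4 and 5 and without genes with a recurring value were added after seeing the data. Signal over the floor limits what can be measured, and 2425 genes had none in LMACT.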

Other observations

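Genes outside the lists also had groups that did not overlap, and these were picked out after their values were seen. After methamphetamine the values were higher for Sephs2, which makes the selenium donor for selenoproteins, by 0.95 (SE 0.385), with 0.09 in HMACT. They were higher for the maintenance DNA methyltransferase gene Dnmt1 by 0.46 (SE 0.175) (HMACT 0.03), the T-type calcium channel gene Cacna1g by 0.41 (SE 0.189) (HMACT -0.00) and the kinase gene Mtor by 0.35 (SE 0.179) (HMACT -0.09). They were lower for the semaphorin receptor gene Nrp1 at -0.64 (SE 0.303) (HMACT 0.28) and the actin-severing protein gene Cfl1 at -0.66 (SE 0.239) (HMACT -0.08). The oligosaccharyltransferase gene Ostc gave -0.71 (SE 0.268) (HMACT 0.16). Without methamphetamine replicates 4 and 5 Dnmt1 was 0.21, Nrp1 -0.32 and Ostc -0.41, and without replicate 4 Mtor was 0.22. None passed the adjusted threshold.

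Saline replicates 3 and 6 resembled each other. Their deviations from the saline mean over the members had a Pearson r of 0.304, the highest of the 15 pairs of saline arrays, and the other pairs ran from -0.649 to 0.269. This r is across genes, which are not independent replicates, and deviations from a shared mean lean negative. Both arrays had high Txnip (6.27 and 6.26), Ddit4 (8.84 and 8.80) and Fosb (12.47 and 12.03) and low Dusp1 (8.32 and 8.25). Their pools had mean ages of 63.75 and 127.5 days.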
